A study of Mus musculus with 16 samples.

Results

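The Hox genes are homeobox transcription factor genes that lie in 4 clusters, named a, b, c and d. Rows of the deposited expression table whose symbol is Hox, a cluster letter and a paralog number were taken as members, which gave 39 of 20325 genes: 11 in HoxA, 10 in HoxB, 9 in HoxC and 9 in HoxD. By paralog number, 8 were anterior (1 to 3), 15 central (4 to 8) and 16 posterior (9 to 13).

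Within a cluster the genes stand in the order in which they are used along the body axis, so that low paralog numbers act in the head and neck and high numbers in the lumbar and caudal trunk and the distal limb. Cells of adult or embryonic mesenchyme keep a stable set of active Hox genes that records where in the body they arose. Genes outside that set are held silent by Polycomb complexes, of which PRC2 methylates lysine 27 of histone H3, and Hox proteins bind DNA together with cofactors of the PBX, MEIS and PKNOX families. An arginine at position 27 or 36 cannot receive the methylation that lysine carries there.

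Polyadenylated RNA was sequenced from C3H10T1/2, a multipotent mouse mesenchymal line that can form bone, fat and cartilage, after transduction for 2 days with a lentivirus carrying a histone H3 transgene and selection with puromycin at 1.5 µg/ml for 4 days. The 8 groups of 2 libraries expressed H3.3 G34W, H3.3 G34R, H3.3 K27R, H3.3 with G34W and K27R, H3.3 with G34W and K36R, H3.1 G34W, H3.1 WT or H3.3 WT. Every group, the WT groups included, carried a transgene on top of its own histone genes, grew in the same medium and went through the same selection. The labels give no untransduced cells and do not say that replicates were separate cultures, so the p-values measure the spread between libraries, which may be technical.

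Estimated depth was 26.02 to 49.1 M reads per library, and 14275 to 15261 genes were above 0. In the deposited unit, 3 reads are worth 2.27 to 3.74, and a value under 3 reads is called so throughout. The 2 H3.3 WT libraries were counted as 1 sample, because a chi-square test over 2764 genes whose values are whole reads found them no further apart than sampling noise (p = 0.941, a ratio to the degrees of freedom of 0.958); over all 12462 genes compared they were further apart (p = 6.1e-63). Pairs of H3.3 G34R, K27R, G34W K27R and G34W K36R were also close (1.17 to 1.36 over genes with whole reads), whereas those of H3.3 G34W, H3.1 G34W and H3.1 WT were far apart (32.7 to 46.7). Of 10 mesenchymal markers, 9 were at 3 reads or more in every library, and Nt5e reached that level in 10. Ptprc, Cd3e, Epcam and Krt18 were under 3 reads everywhere. Cdh1 was above that level in all 16 libraries and reached 299.9, Itgam reached 38.6 and Cdh5 reached 70.0. A lower level in these bulk samples can come from fewer cells with the RNA or from less RNA per cell, which cannot be told apart.

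The 4 clusters were used to very unequal extents. HoxA genes held between 76.6% and 98.9% of the reads on Hox genes in a library, and every HoxD gene was listed at 0 in all 16 libraries. In all, 9 members had 3 reads or more in every library (Hoxa2 to Hoxa7, Hoxa10 and Hoxc13 among them), which is 23.1% of the Hox genes, against 58.6% of all genes in the table. Another 16 reached 3 reads in some libraries, and 14 in none: the 9 HoxD genes, Hoxb1 and Hoxb2 at 0 throughout, and Hoxa11, Hoxa13 and Hoxb13 at no more than 2 reads. For HoxD, 0 reads allowed a share of at most 0.0983% to 0.222% of the Hox reads of a library (upper bound of the exact 95% binomial interval, counting error only). By position, 3 of 8 anterior, 4 of 15 central and 2 of 16 posterior genes had 3 reads in every library. Evx1 and Evx2, the homeobox genes beyond the posterior ends of HoxA and HoxD, were listed at 0 in all libraries, as was Cdx2, a caudal activator of central Hox genes. Cdx4 was under 3 reads in all libraries, whereas Cdx1 was at 3 reads or more in 15, with a highest value of 11.2.

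**Figure D1:**
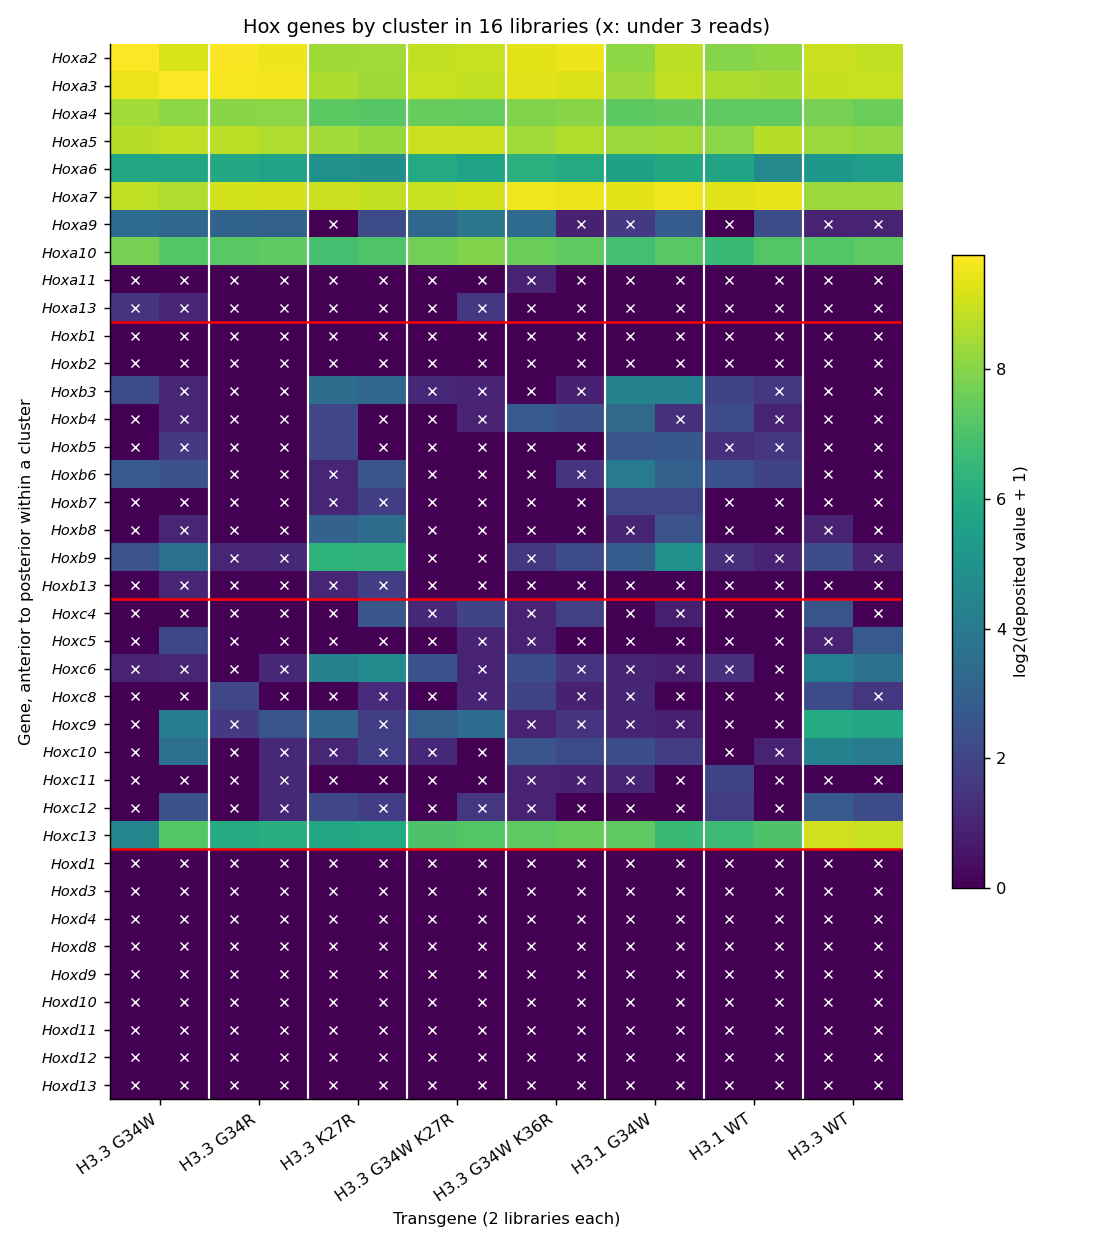
Deposited values of Hox genes as log2(value + 1), with genes in rows by cluster (red lines) and position, and 2 columns per transgene group; a white x marks a value under 3 reads. Hoxa2 to Hoxa7, Hoxa10 and Hoxc13 are above that level in all 16 libraries, and all HoxD rows are at 0.

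Promoter windows from RefSeq (GRCm38.p6, 300 bases that span a gene's start) were matched by symbol for 22 of the 39 genes, 24 windows in all; expression was quantified by the authors on mm9, and the table of values carries no coordinates. The windows of 3 members are shown in lower case with CG dinucleotides in capitals: Hoxa3, read in every library, beside Hoxd3, its paralog in the silent HoxD cluster, and Hoxa7, the member called in the most comparisons. The Hoxa3 window lies at chr6:52213018-52213317 (minus strand), that of Hoxd3 at chr2:74711743-74712042 (plus strand) and that of Hoxa7 at chr6:52218524-52218823 (minus strand). The Hoxa3 window thus stands between those of Hoxa6 and Hoxa7, upstream of Hoxa5 and Hoxa6. Whether this start of Hoxa3 was used in these cells was not tested.
Hoxa3: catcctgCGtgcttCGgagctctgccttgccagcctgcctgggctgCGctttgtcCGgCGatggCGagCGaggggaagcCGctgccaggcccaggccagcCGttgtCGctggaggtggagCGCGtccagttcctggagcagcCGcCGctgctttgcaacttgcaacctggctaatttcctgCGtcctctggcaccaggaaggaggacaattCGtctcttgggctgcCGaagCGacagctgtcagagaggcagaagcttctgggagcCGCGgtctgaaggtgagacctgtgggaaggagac
Hoxd3: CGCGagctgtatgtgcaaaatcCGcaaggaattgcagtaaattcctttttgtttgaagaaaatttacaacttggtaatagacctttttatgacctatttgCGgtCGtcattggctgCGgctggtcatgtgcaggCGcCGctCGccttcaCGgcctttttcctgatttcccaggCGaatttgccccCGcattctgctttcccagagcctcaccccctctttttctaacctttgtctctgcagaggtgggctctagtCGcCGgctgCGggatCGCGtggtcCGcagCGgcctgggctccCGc
Hoxa7: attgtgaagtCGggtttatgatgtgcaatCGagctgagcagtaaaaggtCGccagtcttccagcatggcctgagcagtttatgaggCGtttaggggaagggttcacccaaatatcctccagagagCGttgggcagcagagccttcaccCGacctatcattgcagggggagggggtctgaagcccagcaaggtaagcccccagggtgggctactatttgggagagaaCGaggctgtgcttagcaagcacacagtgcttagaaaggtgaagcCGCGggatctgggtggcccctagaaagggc
Hoxa3 and Hoxd3 each held 20 CG dinucleotides, although Hoxa3 was read in all libraries and Hoxd3 in none, and Hoxa7 held 9. Windows of genes with 3 reads in every library had a median of 20 (9 to 29, 7 windows), and those of genes under 3 reads everywhere also had a median of 20 (4 to 45, 13 windows), beside a median of 7 over all 32851 windows of the table. The letters TATAAA, searched on both strands, were in 4 of the 24 Hox windows (16.7%), against 13.6% of all windows. TGATTNAT, the letters of the joint PBX and Hox site, was in 2 (8.33%), against 3.22% of all windows. No Hox window held both. These matches describe the letters in the windows and say nothing about binding.

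**Figure D2:**
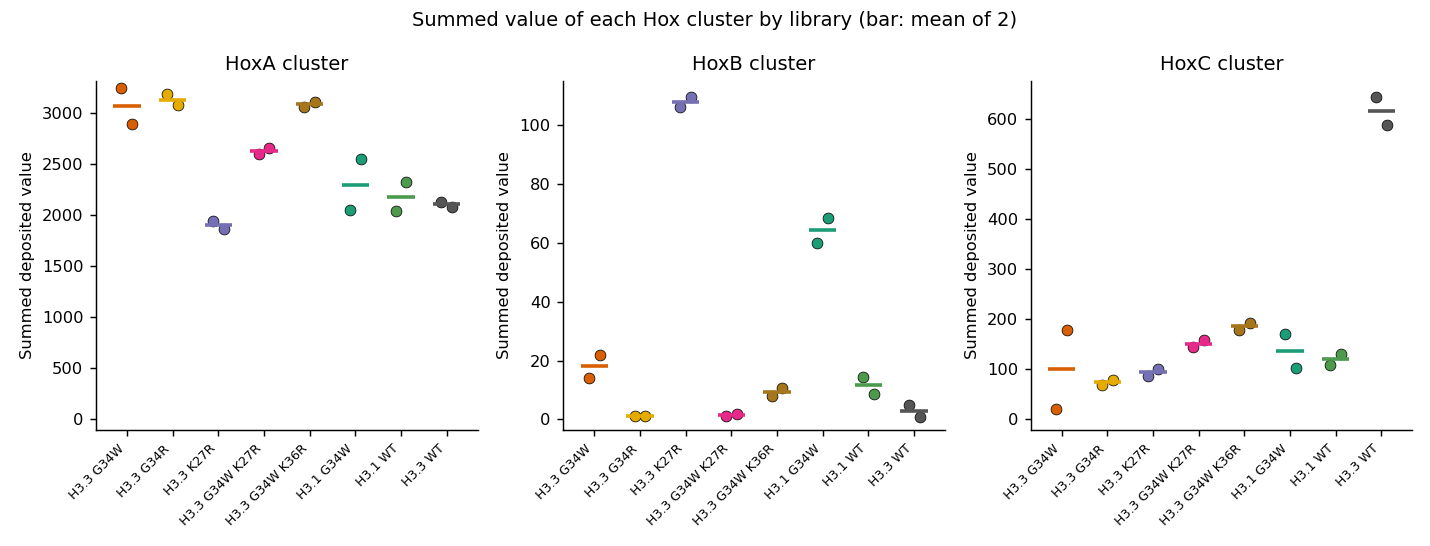
Summed deposited value of the HoxA, HoxB and HoxC genes in each library (points; the bar is the mean of 2), by transgene group on the horizontal axis. HoxA sums run from 1862 to 3240.0, HoxB sums stand out in H3.3 K27R (106 and 109.7) and H3.1 G34W (60.1 and 68.5), and HoxC sums are highest in H3.3 WT (644 and 588).

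Of the 39 genes, 11 had a mean of at least 10 and were tested, among them Hoxa2 to Hoxa7, Hoxa10, Hoxb9, Hoxc9 and Hoxc13. Hoxb9 and Hoxc9 passed that filter only through a single high group each, so their difference is partly built into the filter, and neither is counted as support for a result over the members. Across the 8 groups, limma's moderated F test on log2(value + 1) called 7 of the 11 at an adjusted p of 0.05, beside 66.6% of all 12670 genes tested. Among the 8 HoxA genes tested, which leave out Hoxb9 and Hoxc9, 5 were called, so the HoxA share is close to the background. The 7 called included Hoxa2, Hoxa3, Hoxa4, Hoxa7, Hoxb9 and Hoxc9 (adjusted p from limma 4.2e-04 to 0.0464). Hoxa5, Hoxa6, Hoxa10 and Hoxc13 did not pass (0.0556 to 0.120). All comparisons with H3.3 WT share that 1 sample. With the 5 close pairs each counted as 1 sample, none of the 7 F calls and none of the 13 calls between groups passed (limma adjusted p 0.0829 to 1 for calls between groups).

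HoxA genes took most of the Hox reads, and Hoxa7, a central gene that patterns the thoracic region and is a known target of MLL1, differed in the most comparisons. Its values were 454 and 387 in H3.3 G34W, 549 and 559 in G34R, 499 and 471 in K27R, 495 and 549 in G34W K27R and 744 and 719 in G34W K36R. In H3.1 G34W they were 656 and 746, in H3.1 WT 616 and 689.9, and in H3.3 WT 314 and 315. The H3.3 WT libraries were the lowest of the 16, and none of the 7 other groups overlapped them. Hoxa6 in G34W did not overlap the close H3.3 WT pair either, though its limma adjusted p was 0.725. The share of all genes without overlap is not given here, so nothing is read from overlap with H3.3 WT, here or below. Order by group mean ran from G34W K36R (732 ± 17.8, SD, n = 2), H3.1 G34W (701 ± 63.8) and H3.1 WT (653 ± 52.0) through G34R (554 ± 6.99), G34W K27R (522 ± 38.2) and K27R (485 ± 19.4) to G34W (421 ± 47.5) and H3.3 WT (314, counted as 1 sample). The H3.1 G34W libraries overlapped those of G34W K36R and of H3.1 WT, and the G34W K36R libraries lay above those of H3.1 WT.

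Hoxa7 was higher than in H3.3 WT by 1.22 ± 0.18 on the log2 scale in G34W K36R (SE of the fit, limma adjusted p = 0.00185), and this call held with each of the 16 libraries left out in turn. It was the HoxA gene called there, 1 of 8 tested, beside 17.1% of all genes (8.30% higher and 8.82% lower). Hoxc9 was called lower, which made 2 of 11 members, but H3.3 WT brought Hoxc9 over the filter. Nothing is read from that count. In G34R, Hoxa7 was the 1 member called (0.82 ± 0.18, limma adjusted p = 0.0391), beside 2.72% of all genes (1.75% higher and 0.963% lower); leaving out either library of G34R, K27R, G34W K27R or G34W K36R ended this call (limma adjusted p 0.0825 to 0.224). In G34W K27R it was also the 1 member called (0.73 ± 0.18, limma adjusted p = 0.0207), beside 14.3% of all genes (6.42% higher and 7.91% lower), and leaving out either library of that group ended the call (0.0627 and 0.126). In K27R the difference was 0.62 (limma adjusted p = 0.114) and in G34W 0.41 (0.349), neither of which passed.

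Against H3.3 G34W, the double mutant G34W K36R had Hoxa7 at 744 and 719, with 454 and 387 in G34W. The log2 difference was 0.80 ± 0.14 (limma adjusted p = 0.00283), the 1 call among the 11 members, beside 30.6% of all genes (14.4% higher and 16.2% lower). This call held with each library left out, but not in a fit of these 2 groups alone (limma adjusted p = 0.0550). G34W K27R against G34W differed in Hoxa7 by 0.31 ± 0.14, which did not pass (limma adjusted p = 0.157).

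Hoxa2, Hoxa3 and Hoxa4 are neighbours that run from the anterior into the central genes, with roles in the hindbrain and second branchial arch (Hoxa2), in the pharyngeal organs such as thymus and parathyroid (Hoxa3) and in the cervical vertebrae (Hoxa4). Hoxa3 values were 719.9 and 849 in H3.3 G34W, 792 and 776 in G34R, 374 and 328 in K27R, 497 and 467 in G34W K27R and 643 and 613 in G34W K36R. They were 317 and 460.4 in H3.1 G34W, 379 and 354 in H3.1 WT and 480.1 and 493 in H3.3 WT. Thus the G34W, G34R and G34W K36R libraries lay above H3.3 WT, the K27R, H3.1 G34W and H3.1 WT libraries below it, and G34W K27R overlapped it.

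Hoxa4 values were 338 and 276 in H3.3 G34W, 261 and 265 in G34R, 156 and 149.6 in K27R, 177 and 175 in G34W K27R and 241 and 261 in G34W K36R. In H3.1 G34W they were 158 and 172, in H3.1 WT 164 and 165, and in H3.3 WT 214 and 189.8. The same 3 groups as for Hoxa3 lay above H3.3 WT, and here G34W K27R lay below it with the other 3. Hoxa2 values were 867 and 578 in H3.3 G34W, 827 and 731 in G34R, 334 and 338 in K27R, 468 and 491 in G34W K27R and 658 and 737 in G34W K36R. They were 274 and 437 in H3.1 G34W, 256 and 283 in H3.1 WT and 502 and 469.7 in H3.3 WT. The H3.3 G34W libraries were far apart for Hoxa2 but above H3.3 WT, and both H3.1 groups were below it.

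Of these neighbours, Hoxa3 and Hoxa4 were lower in the double mutant G34W K27R than in G34W alone. Hoxa3 was 482 ± 21.1 in G34W K27R and 784 ± 91.0 in G34W (SD, n = 2 each), a log2 difference of -0.70 ± 0.18 (limma adjusted p = 0.0221). Hoxa4 was 176 ± 1.65 in G34W K27R and 307 ± 44.1 in G34W, a difference of -0.79 ± 0.17 (limma adjusted p = 0.00907). Hoxa2 differed by -0.56 ± 0.24 and did not pass (limma adjusted p = 0.129). Hoxa5, Hoxa6, Hoxa7 and Hoxa10 had differences between 0.03 and 0.33 in the other direction, none called, and the HoxA median was 0.11, beside -0.02 over all genes.

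In that comparison 2 of the 8 HoxA genes tested were called, both lower, beside 21.6% of all genes called in either direction, 9.24% higher and 12.4% lower. Hoxb9 was called lower too, but it entered the test through K27R and is not counted here. Leaving out either G34W K27R library ended the calls of Hoxa3 and Hoxa4. Leaving out G34W replicate 2 ended that of Hoxa3, while more members in all were then called. The share of all genes called in that fit is not given here. In a fit of these 2 groups alone neither passed (limma adjusted p 0.0906 for Hoxa3 and 0.118 for Hoxa4). The 3 endothelial markers summed to 12.2 and 4.86 in G34W K27R and to 0 and 2.64 in G34W K36R, against 50.7 and 75.5 in G34W, most of it Cdh5 in G34W; their part in the Hox results was not tested.

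**Figure D3:**
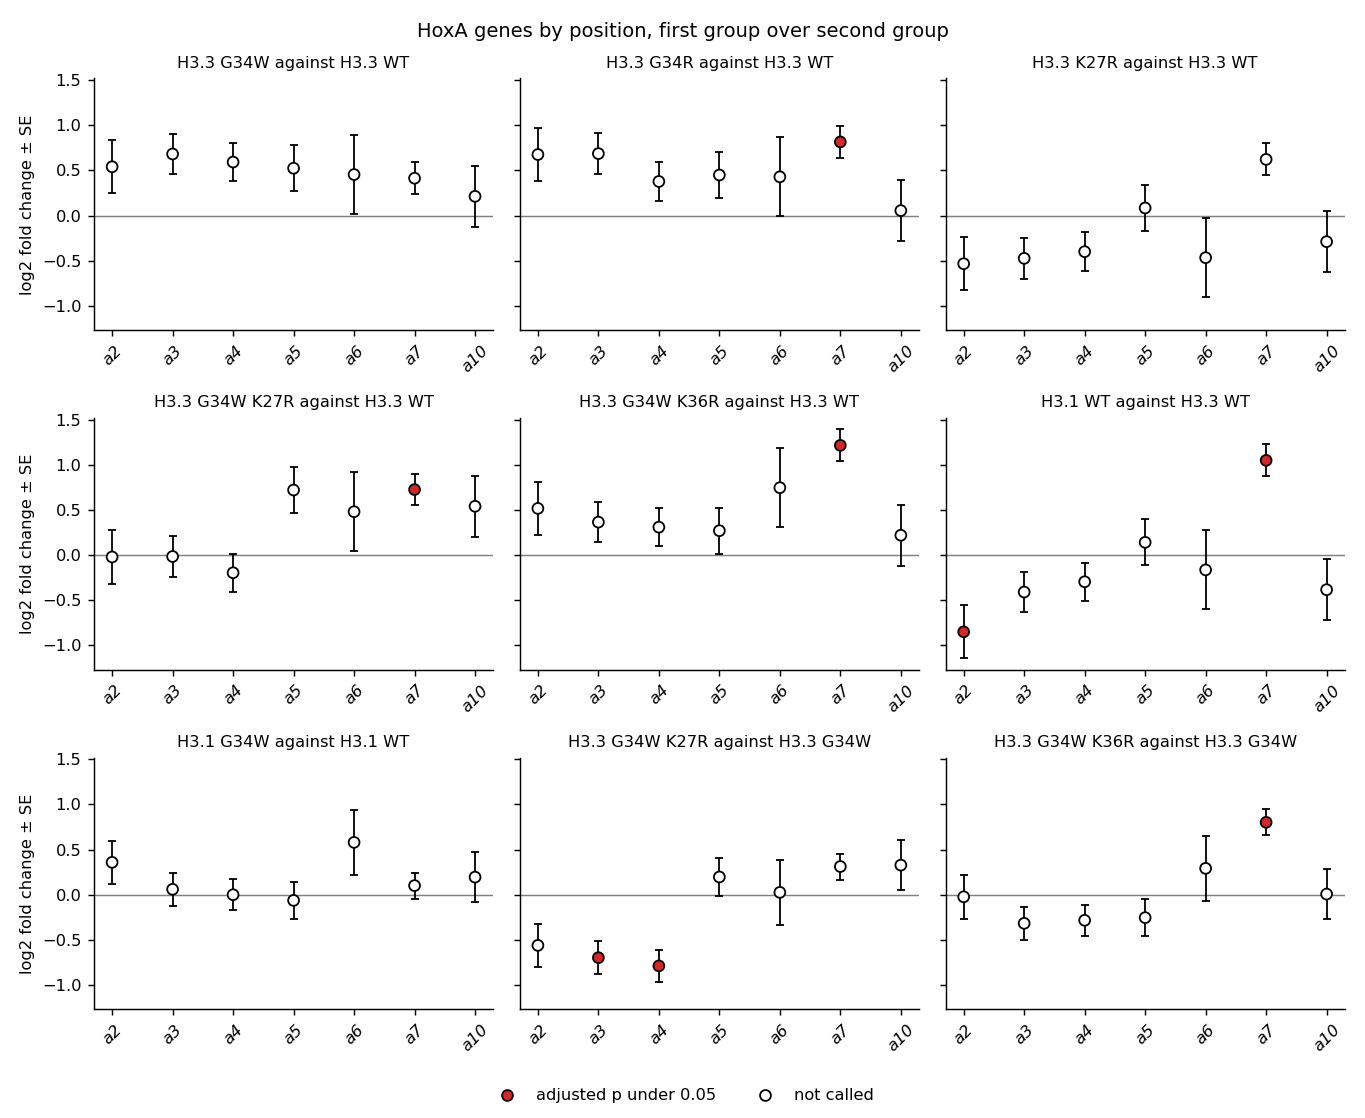
Log2 fold change (points) with its SE (bars) of Hoxa2 to Hoxa7 and Hoxa10 in order along the cluster, in 9 comparisons, the group named ahead of "against" over the other; red points have a limma adjusted p under 0.05. In H3.3 G34W and G34W K36R against H3.3 WT all points are above 0, and in G34W K27R against G34W the points of Hoxa2, Hoxa3 and Hoxa4 are below 0.

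Compared with H3.3 WT, H3.3 G34W had no Hox gene called, beside 1.18% of all genes (150 of 12670, 0.75% higher and 0.434% lower). At an unadjusted p under 0.05, limma gave 3 of the 8 HoxA genes tested, beside 1678 of 12670 genes. Of all 11 members it gave 5, but Hoxc9 among them entered the test through H3.3 WT, so nothing is read from that count. All 8 tested HoxA genes had positive differences (0.21 to 0.68, median 0.49, beside 0.0018 over all genes), the highest for Hoxa3 (0.68 ± 0.23, limma adjusted p = 0.208). In G34R 7 of the 8 were positive (median 0.44, beside -0.01 over all genes). In G34W K36R all 8 were positive (median 0.38, beside -0.01). In K27R 6 of the 8 were negative (median -0.34, beside -0.01), the exceptions being Hoxa5 at 0.08 and Hoxa7 at 0.62. With either H3.3 G34W library left out, more members were called in G34W, G34R, K27R and G34W K27R than with all libraries. The number of members called against H3.3 WT moved to 4 in G34W, 4 in G34R, 3 in K27R and 3 in G34W K27R when the H3.3 WT libraries were counted separately. The share of all genes called in these fits is not given here, so nothing is read from them.

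Between the wild-type histones, H3.1 WT against H3.3 WT, 4 of 11 members were called, 2 higher and 2 lower, beside 33.4% of all genes (16.3% higher and 17.0% lower). Hoxc9, 1 of the 4, entered the test through H3.3 WT. Among the 8 HoxA genes tested 3 were called, 2 higher and 1 lower, a share again close to the background. Hoxa7 was higher in H3.1 WT by 1.05 ± 0.18 (limma adjusted p = 0.00179), whereas Hoxa2 was lower by -0.85 ± 0.29 (limma adjusted p = 0.0487) and Hoxc9 was lower too. Hoxa3 and Hoxa4 had differences of -0.41 and -0.29 that did not pass (limma adjusted p 0.186 and 0.308). Of the 9 mesenchymal markers tested, 1 was called higher and 4 lower in the same comparison; their part in the Hox results was not tested.

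In that comparison the Hoxa7 call held with each library left out. Fewer members were called without H3.1 WT replicate 2, which leaves that group 1 library. Hoxa2 was lost without any 1 of 11 libraries (0.0598 to 0.113), namely both of G34R, K27R, G34W K27R, G34W K36R and H3.1 WT and H3.3 WT replicate 1, with no filter (0.0630) and after a TMM rescaling (0.0548).

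H3.1 G34W against H3.1 WT gave no call among the 11 members and none among all genes (0%); at an unadjusted p under 0.05, limma gave 1 member, Hoxb9, beside 2015 of 12670 genes. Members were called when H3.1 G34W replicate 1 or H3.1 WT replicate 1 was left out, fits that leave a group 1 library. The share of all genes called in them is not given here, so nothing is read from them. HoxA differences reached 0.58 for Hoxa6, with a median of 0.08, beside -0.0033 over all genes. The difference between the G34W effect in H3.3 and that in H3.1, a test chosen after the data were seen, called none of the 11 members, beside 0.197% of all genes (0.11% higher and 0.0868% lower). At an unadjusted p under 0.05 it gave 2 members, Hoxc13 and Hoxc9, beside 1342 of 12670 genes (smallest limma adjusted p among members 0.294). Hoxc9 entered the test through H3.3 WT, which is part of this difference, so nothing is read from that count.

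The other HoxA genes did not pass the F test or were too low to test. Hoxa5, with a role in lung and cervicothoracic patterning, ranged from 268 to 502 over the libraries. Hoxa6 ranged from 23.5 to 72.4 and Hoxa10, a posterior gene needed in the uterus and lumbar spine, from 96.3 to 242. Hoxa9 stands between Hoxa7 and Hoxa10 in the cluster, yet it never exceeded 14 reads and was not tested. Its reads summed to 22 in G34W K27R, 18 in G34W, 13 in G34R and 11 in G34W K36R. The sums were 10 in H3.1 G34W, 4 in H3.1 WT, 3 in K27R and 2 in H3.3 WT. The ratio to H3.3 WT was 11.8 in G34W K27R (95% exact counting interval 2.89 to 103) and 9.39 in G34W (2.25 to 83.4), intervals that cover counting error only. Of the reads in G34W K36R, 10 came from replicate 1 and 1 from replicate 2. Hoxa9 and the HoxB and HoxC genes described next without a call were chosen after their values were seen.

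HoxB genes were low in most groups, and K27R and H3.1 G34W had the highest sums. Hoxb9, a posterior gene that patterns the ribs together with Hoxa9 and Hoxc9, was 78.7 and 81.0 in K27R, 4.69 and 11.1 in H3.3 G34W, 1.08 and 1.21 in G34R, 0 and 0 in G34W K27R, 1.96 and 3.53 in G34W K36R and 3.87 and 0.969 in H3.3 WT. In H3.1 G34W it was 6.22 and 28.5, against 1.52 and 0.977 in H3.1 WT. The K27R libraries thus lay above all other libraries.

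In K27R against H3.3 WT the 1 member past the threshold was Hoxb9, beside 2.75% of all genes (1.85% higher and 0.908% lower). Since K27R is the group that brought Hoxb9 over the mean of 10, nothing is read from that count. The log2 difference was 4.56 ± 0.81 (limma adjusted p = 0.0153, and 0.0127 in the fit with no filter on low values). In reads, 139 in K27R stood against 5 in H3.3 WT, a ratio of 32.9 (95% exact counting interval 13.8 to 103). Leaving out either K27R library ended the call (limma adjusted p 0.0933 and 0.107). Markers of other cell types moved with this group: the 4 blood markers summed to 39.4 and 39.9 in K27R, against 4.85 and 5.82 in H3.3 WT, almost all of it Itgam, while Ptprc and Cd3e stayed under 3 reads. The 4 epithelial markers summed to 305 and 300.4 in K27R, against 163 and 191 in H3.3 WT, mostly Cdh1, while Epcam and Krt18 stayed under 3 reads; their part in the Hoxb9 result was not tested.

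In the double mutant with K27R, Hoxb9 was not detectable at this depth. It was 0 and 0 in G34W K27R, against 4.69 and 11.1 in H3.3 G34W, at least 2.52-fold lower with 3 reads per library taken as the limit (limma adjusted p = 0.00840). The call was lost with a pseudocount of 5 (limma adjusted p = 0.0654), without either G34W K27R library (0.0537 for both) and in a fit of these 2 groups alone (0.0834). In H3.1 G34W, 43 reads of Hoxb9 stood against 3 in H3.1 WT, a ratio of 14.8 (95% exact counting interval 4.75 to 74.7), of which 37 reads came from replicate 2; it was not called (limma adjusted p = 0.302), beside 0% of all genes.

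The other HoxB genes were read at low counts. Hoxb3, a gene of the pharyngeal arches and of blood progenitors, was 19.7 and 18.5 in H3.1 G34W, against 3.03 and 1.95 in H3.1 WT, and 10.6 and 8.72 in K27R, against 0 and 0 in H3.3 WT. These H3.1 G34W libraries did not overlap those of H3.1 WT, with 43 reads against 6 and a ratio of 7.42 (95% exact counting interval 3.14 to 21.3). In K27R it was at least 3.33-fold higher than in H3.3 WT, with 3 reads per library as the limit. Hoxb6 had 24 reads in H3.1 G34W and 9 in H3.1 WT, a ratio of 2.76 (1.24 to 6.75). Hoxb8 had 15 reads in K27R and 1 in H3.3 WT, a ratio of 17.8 (2.73 to 748). Both libraries of H3.1 G34W had 6 HoxB genes at 3 reads or more and those of K27R 5 and 4, against 3 and 1 in H3.1 WT and 1 and 0 in H3.3 WT. All these means were under 10, so these genes entered only the fit with no filter on low values, in which limma's F test called Hoxb3, Hoxb5, Hoxb6, Hoxb7 and Hoxb8 across the 8 groups (adjusted p 2.6e-04 to 0.0396), beside 52.6% of the 17522 genes in that fit. Hoxb4 reached 9.33, Hoxb5 5.39 and Hoxb7 3.11, each highest in H3.1 G34W.

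**Figure D4:**
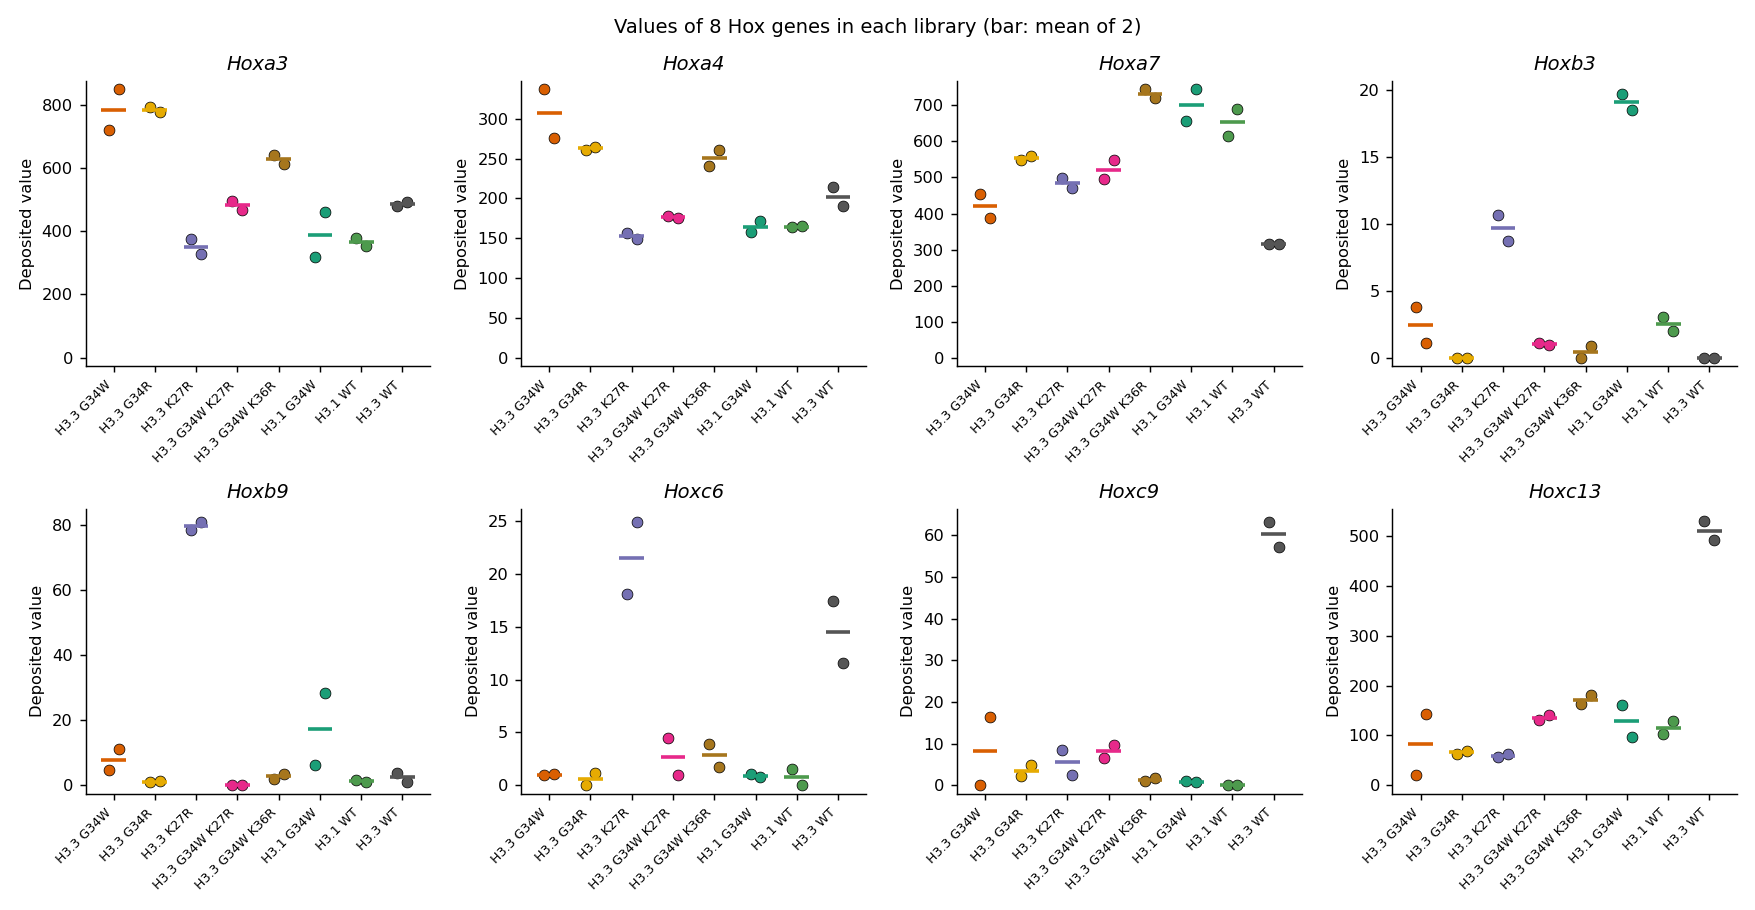
Deposited values of 8 Hox genes in each library (points; the bar is the mean of 2), by transgene group. Hoxa7 is lowest in H3.3 WT (314 and 315), Hoxb9 is highest in H3.3 K27R (78.7 and 81.0), and Hoxc9 and Hoxc13 are highest in H3.3 WT (63.2 and 57.1; 529 and 492).

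The summed level of the HoxC genes was highest in H3.3 WT. The cluster summed to between 21.6 and 192 in the libraries of the other groups and to 644 and 588 in H3.3 WT. This was 0.659% to 7.46% of the Hox reads in the other groups, against 23.2% (95% exact interval 21.7 to 24.8) and 22.0% (20.5 to 23.6) in H3.3 WT. Hoxc13, the last gene of the cluster and one needed for hair and nails, made up most of it. Its values were 20.6 and 143 in H3.3 G34W, 63.6 and 68.9 in G34R, 56.3 and 62.3 in K27R, 131 and 141 in G34W K27R and 162 and 181 in G34W K36R. They were 162 and 97.8 in H3.1 G34W, 103 and 129 in H3.1 WT and 529 and 492 in H3.3 WT. The H3.3 WT libraries overlapped no other group, and the H3.3 G34W libraries were the furthest apart of any group.

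No comparison with H3.3 WT called Hoxc13. The log2 differences were -3.20 ± 0.81 in G34W, -2.93 ± 0.81 in G34R, -3.09 ± 0.81 in K27R, -1.90 ± 0.81 in G34W K27R, -1.57 ± 0.81 in G34W K36R and -2.14 ± 0.81 in H3.1 WT. The limma adjusted p ran from 0.0656 to 0.210 over these 6. It passed without either H3.3 G34W library, but leaving out 1 takes the spread of that pair, the furthest apart, out of the fit. With the H3.3 WT libraries counted separately it passed in 5 of the 6 (limma adjusted p 0.0112 to 0.0436). That fit treats as replicates 2 libraries that were counted as 1 sample because they were so close. The share of all genes called in these fits is not given here, so nothing is read from them. Since H3.3 WT counts as 1 sample, its high level has no replicate check of its own beyond the 2 libraries.

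Hoxc9, a gene of the thoracic cord and ribs, was 0 and 16.4 in H3.3 G34W, 2.16 and 4.83 in G34R, 8.50 and 2.49 in K27R, 6.65 and 9.73 in G34W K27R and 0.978 and 1.76 in G34W K36R. It was 1.04 and 0.770 in H3.1 G34W, 0 and 0 in H3.1 WT and 63.2 and 57.1 in H3.3 WT. The H3.3 WT libraries lay above all others, and 7 of the 16 libraries reached 3 reads.

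Hoxc9 was past the threshold against H3.3 WT in H3.1 WT and in G34W K36R, but H3.3 WT is the group that brought it over the mean of 10, so nothing is read from these counts. With no filter on low values the limma adjusted p was 0.00826 in H3.1 WT and 0.0387 in G34W K36R. In H3.1 WT it was at least 23.1-fold lower, with 3 reads per library as the limit (limma adjusted p = 0.00764 with the filter). Fits with 1 library left out kept H3.3 WT and the same filter, so they cannot test this call. In G34W K36R, 3 reads stood against 124 in H3.3 WT, a ratio of 0.0232 (95% exact counting interval 0.00471 to 0.0693; limma adjusted p = 0.0360). The G34W K36R call was lost with a pseudocount of 0.5 (limma adjusted p = 0.0578) and without any 1 of the libraries of G34R, K27R, G34W K27R or G34W K36R (0.0510 to 0.135). The 3 endothelial markers summed to 0 and 2.64 in G34W K36R and to 10.6 and 3.91 in H3.1 WT, against 14.5 and 12.6 in H3.3 WT. Cdh5 and Pecam1 averaged 0.758 and 1.36 in H3.1 WT, against 7.75 and 5.81 in H3.3 WT, whereas Kdr averaged 5.15 in H3.1 WT and was listed at 0 in H3.3 WT; their part in the Hoxc9 result was not tested.

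With H3.3 WT left out, an alternative added after the data were seen, the F test over the other 7 groups no longer called Hoxc9 (limma adjusted p = 0.195). It called the other 6 members, Hoxb9 among them. The share of all genes called in that fit is not given here, so nothing is read from that count.

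Hoxc10 was also highest in H3.3 WT, and Hoxc6 was highest in K27R. Hoxc10, a posterior gene of the lumbar cord and hindlimb, had 10 reads in H3.3 G34W, 9 in G34W K36R, 7 in H3.1 G34W and 1 to 3 in G34R, K27R, G34W K27R and H3.1 WT, against 35 in H3.3 WT. The ratio was 0.298 in G34W (95% exact counting interval 0.132 to 0.615) and 0.246 in G34W K36R (0.104 to 0.523). All 10 reads of G34W came from replicate 2. Hoxc6, a central gene of the thoracic region, was 18.1 and 24.9 in K27R, against 17.5 and 11.6 in H3.3 WT, and at most 4.44 in the other libraries. Its ratio in K27R to H3.3 WT was 1.46 (0.879 to 2.45), an interval that includes 1. In the fit with no filter, limma's F test called Hoxc6 (adjusted p = 0.00322) but not Hoxc10 (0.159). Hoxc4, Hoxc5, Hoxc8, Hoxc11 and Hoxc12 never exceeded 6 reads in a library.

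Among the genes known to work with or around the clusters, the cofactors of the PBX, MEIS and PKNOX families were all read. All 9 had 3 reads or more in every library, and limma's F test called 7 of them, beside 66.6% of all genes. In G34W K36R against H3.3 WT, 4 of 9 were called, all higher, beside 17.1% of all genes called in either direction (8.30% higher and 8.82% lower). Among them were Meis1 (1.16 ± 0.27, limma adjusted p = 0.0169), Meis2 (1.13 ± 0.19, 0.00349) and Pknox2 (2.49 ± 0.72, 0.0387). Against G34W the same group had 3 called higher, Meis1 and Meis2 among them, and Meis3 called lower (-1.13 ± 0.30, limma adjusted p = 0.0176). These 4 of 9 stood beside 30.6% of all genes. In H3.1 WT against H3.3 WT, Meis1 and Meis2 were called higher and Pbx2 and Meis3 lower, beside 33.4% of all genes. G34W K27R had Meis2 called higher and Pbx4 lower, both against H3.3 WT and against G34W, beside 14.3% and 21.6% of all genes. No cofactor was called in G34W, G34R or K27R against H3.3 WT or in H3.1 G34W against H3.1 WT, beside 1.18%, 2.72%, 2.75% and 0% of all genes. The alternative fits, such as close pairs counted as 1 sample, were examined for Hox genes only. Calls of cofactors, flanking genes and regulators were not checked in that way.

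Genes that flank the clusters gave 13 tested of 16 and 6 called by the F test, beside 66.6% of all genes. None was called in G34W, G34R, K27R or G34W K36R against H3.3 WT or in H3.1 G34W against H3.1 WT. The shares of all genes called there were 1.18%, 2.72%, 2.75%, 17.1% and 0%. Against H3.3 WT, 1 was called lower in G34W K27R, beside 14.3% of all genes, and 2 were called higher and 3 lower in H3.1 WT, beside 33.4%. Against G34W, 1 was called lower in G34W K27R, beside 21.6%, and 2 lower in G34W K36R, beside 30.6%. Of 9 regulators listed, 6 were tested and 3 called by the F test, again beside 66.6% of all genes: Rara, a retinoic acid receptor, Men1, a partner of MLL1, and Kdm6b, a demethylase of lysine 27. Of the 6 regulators tested, 1 was called higher in G34W K36R, beside 17.1% of all genes, and 1 lower in H3.1 WT, beside 33.4%, each against H3.3 WT. In comparisons with G34W, 1 was called lower in G34W K27R, beside 21.6%, and 1 higher in G34W K36R, beside 30.6%. MLL1 itself (listed as Mll1) was not called across groups (limma adjusted p = 0.137). Non-coding genes of the clusters, such as Hotair and Hottip, were not analysed here. The sources used here do not say whether counting used strand, so reads of a Hox gene and of an antisense or overlapping transcript cannot be told apart.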

How the data were processed

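Poly(A)-selected RNA was sequenced from 16 C3H10T1/2 libraries, 2 for each of 8 transgenes. The deposited signal values were made by the authors with RSEM 1.2.4 on mm9, per the submitters' processing notes; the aligner, annotation and strand setting are not given in the sources used here. The values are expected counts times 1 constant per library, as found from their smallest steps, and 84.5% of the Hox values above 0 (251 of 297) came out as whole reads within 0.01. Over all genes this held for 41.5% to 47.6%, so no count test was run. Depth estimated from these steps was 26.02 to 49.1 M reads.

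Tests used limma 3.58.1 (R 4.3.3, statmod 1.5.0) after adding 1 to each value and taking log2. A mean of 10 or more over the libraries left 12670 genes in the test, with a trended and robust prior, over 8 groups and 9 comparisons, with 15 samples (the H3.3 WT pair averaged) and 7 residual degrees of freedom. P-values were two-sided and adjusted by Benjamini-Hochberg over all genes tested, with a threshold of 0.05; fold changes on this scale understate the change of low genes. The script was tested on simulated data. Read ratios carry exact 95% intervals that cover counting error only, and a group at 0 was set to 3 reads per library. A second deposited table of 180 genes holds the same values and no Hox gene.

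The rule named members with a mean of at least 10 that were called, and others by ranges. The members and gene lists were chosen with earlier results of these data known. Other pseudocounts, filters, a TMM rescaling, the replicate block, separate or merged pairs, fits of 2 groups and each library left out were tried. A few genes of the sets and lists counted are not reported by name here.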

Additional observations from a re-analysis of the deposited data

How the results depend on the processing

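No Hox call between groups, and no Hoxc13 difference from H3.3 WT, changed sign under any alternative run. Signs of the other Hox differences were not checked across the alternatives. The counts in this section check the processing and are not results about the members, since shares of all genes are not given beside them. Numbers of Hox genes called that moved by over 1.5 times were as follows. A pseudocount of 0.5 gave 1 for G34W K36R against H3.3 WT, and one of 5 gave 2 for G34R. With no filter on low values, 3 were called for K27R and 13 by the F test over groups; with a minimum mean of 50, 0 for K27R and 1 for G34W K36R. With the H3.3 WT libraries counted separately, 4 were called for G34W, 4 for G34R, 3 for K27R and 3 for G34W K27R. With close pairs counted as 1 sample, 0 Hox genes were called by the F test and in every comparison. In fits of the 2 groups compared, both double mutants against G34W gave 0; such fits were not run where H3.3 WT is 1 sample.

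With the replicate block, 1 Hox gene was called for G34W, 4 for G34R, 3 for K27R and 3 for G34W K27R, each against H3.3 WT; same-numbered libraries share only a number, since their deviations from the group means did not move together (correlations -0.27 to 0.06 over 28 pairs of groups).

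Leaving out each library in turn gave 5 to 9 F calls. Calls ranged over 0 to 3 for G34W, 0 to 3 for G34R, 0 to 4 for K27R, 0 to 3 for G34W K27R, 1 to 3 for G34W K36R and 2 to 5 for H3.1 WT, each against H3.3 WT. They ranged over 0 to 2 for H3.1 G34W against H3.1 WT, and over 0 to 5 for G34W K27R and 1 to 2 for G34W K36R against G34W. A group left with 1 library takes its spread from the rest of the fit. Depth limits HoxB, Hoxa9 and the low HoxC genes, whose counts are under 3 reads in many libraries. The causes of these shifts were not tested.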
